A study of Homo sapiens with 6 samples.

Results

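The S100 calcium-binding proteins described here are 10 genes, S100A2, S100A4, S100A6, S100A8, S100A9, S100A10, S100A11, S100A14, S100A16 and S100P, out of 58024 genes with an expression value in C4-2B prostate cancer cells. They were picked out of the table by gene name. C4-2B is a castration-resistant subline of the LNCaP cell line, and the experiment compared 3 RNA-Seq libraries of parental cells with 3 libraries of enzalutamide resistant cells. Enzalutamide is an antiandrogen drug. The resistant cells were obtained by passaging C4-2B through rising enzalutamide concentrations, from 1 up to 20 µM, over 6 months or longer, pooling the survivors and keeping them in 5 µM drug. They are therefore 1 derived population, and other derivations were not analysed here. The parental cells were passaged in dimethyl sulfoxide, for which the labels and the study's methods give different concentrations, and both were grown in 10% fetal bovine serum. RNA was extracted after exposure to 10 µM enzalutamide, and the sources used here do not settle whether the parental cells received that exposure. The labels number the libraries 0, 1 and 2 in each group but do not say that they came from separate cultures, so p-values measure only the spread between these libraries, which may be technical.

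S100 proteins are small proteins with paired EF-hand loops. Most bind calcium, change shape and then dock on target proteins such as annexins, non-muscle myosin or ezrin, and several are also released from cells and act on surface receptors such as RAGE, the product of AGER. Most of the genes lie side by side on the long arm of chromosome 1, within the epidermal differentiation complex, and 9 of the 10 members are there. S100P is on chromosome 4. In epithelia the members are used in different ways, S100A8 and S100A9 being best known from neutrophils and monocytes and S100A2 from basal epithelial cells.

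In the resistant libraries 3 members were higher, S100A6, S100A10 and S100P, and 2 were lower, S100A11 and S100A4. S100A6 went from 0.319 ± 0.258 to 39.0 ± 3.91 FPKM (mean ± SD, n = 3) and S100A10 from 2.90 ± 1.18 to 122.7 ± 8.06 FPKM, ratios of means of 122.5 and 42.3. S100A11 moved the other way, from 175.5 ± 23.6 to 67.0 ± 3.21 FPKM, so that the most abundant member was S100A11 in every parental library and S100A10 in every resistant library. FPKM is the number of fragments per kilobase of transcript, scaled to all mapped fragments of the library. It allows a rough comparison between genes, which depends on the transcript length taken for each. Because these are bulk libraries, a change in the share of cells that express a gene and a change in its level per cell cannot be told apart.

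Calls were made over all genes with limma at a Benjamini-Hochberg adjusted p below 0.05 on log2(FPKM + 0.1), where the pseudocount of 0.1 understates the change of low genes. Of the 10 members, 8 had the mean of at least 0.1 FPKM needed for the test, and all 8 reached that mean in the parental libraries alone. The 5 calls among 8 tested members stand beside a background of 44.4% of 24468 tested genes called in either direction, 22.1% higher and 22.3% lower in the resistant libraries. The groups did not overlap for 5 of the 8, against 54.8% of all tested genes. The median log2 fold change of the tested members was -0.39, beside -0.05 over all tested genes. Over so few genes this share of calls is not read as a result about the family. S100A6 and S100A10 were at rank 149 and 430 of the 24468 tested genes by absolute log2 fold change, and the other members that changed ranked far lower.

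Estimated depth overlapped between parental and resistant libraries, but resistant replicate 0 had more genes above 0 than the rest. It had 27153 such genes, against 21956 to 24080 in the other libraries. The values summed to between 7.93e+05 and 8.701e+05 FPKM per library, and depth was estimated at 13300000 to 20100000 reads from the smallest step between values of genes that have a lone transcript, an approximate figure. The luminal prostate label was checked with 11 marker genes, all of which were expressed. HOXB13, a prostate lineage factor, was at 103.4 ± 6.91 and 102.1 ± 3.76 FPKM in parental and resistant libraries. The summed luminal level was 4441 to 5217 FPKM in parental and 1374 to 1484 FPKM in resistant libraries. Of the 11 markers, 8 were lower and 2 higher, beside 22.3% lower and 22.1% higher over all tested genes. KLK3, which encodes prostate-specific antigen, fell from 2556 ± 274.0 to 44.04 ± 2.58 FPKM.

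The windows before the transcription starts of the members that changed most are shown first, because S100A10 and S100A11, next to each other on the chromosome, moved in opposite directions. The sequences are RefSeq's, build GRCh38.p14, cut to the 250 bases before the annotated start and written 5′ to 3′ on the gene's strand, with CpG dinucleotides in capitals. S100A4 is the lower member with the largest log2 change, and S100A10 was added after its values were seen.
S100A10: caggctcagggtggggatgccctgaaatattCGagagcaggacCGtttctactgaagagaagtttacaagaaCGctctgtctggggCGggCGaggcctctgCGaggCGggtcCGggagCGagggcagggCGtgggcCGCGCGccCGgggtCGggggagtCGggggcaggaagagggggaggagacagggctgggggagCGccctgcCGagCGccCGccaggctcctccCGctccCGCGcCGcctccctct
S100A11: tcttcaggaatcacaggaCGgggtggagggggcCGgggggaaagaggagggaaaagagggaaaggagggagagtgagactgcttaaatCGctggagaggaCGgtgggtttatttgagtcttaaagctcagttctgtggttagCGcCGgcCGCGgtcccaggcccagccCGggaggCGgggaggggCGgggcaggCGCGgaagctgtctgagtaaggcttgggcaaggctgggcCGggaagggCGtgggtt
S100A4: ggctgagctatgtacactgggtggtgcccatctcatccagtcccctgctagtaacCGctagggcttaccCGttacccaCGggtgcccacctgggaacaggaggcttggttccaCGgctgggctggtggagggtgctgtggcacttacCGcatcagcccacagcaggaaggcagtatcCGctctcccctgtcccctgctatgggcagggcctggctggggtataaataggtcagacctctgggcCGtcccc

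The S100A10 window is chr1:151993860-151994109, the S100A11 window chr1:152037005-152037254 and the S100A4 window chr1:153545807-153546056, each on the minus strand. None overlaps an exon of its own gene in GENCODE v44. The RefSeq starts of S100A11 and S100A4, and their windows, lie inside the longer GENCODE spans of those genes (chr1:152032506-152047907 and chr1:153543613-153550136). For S100A6 the window, chr1:153535992-153536241, is covered by first exons of 2 alternative S100A6 transcripts in GENCODE v44, so only a stretch of 30 bases is printed, chr1:153536057-153536086 on the minus strand, with GC boxes (GGGCGG) in capitals.
S100A6: ggcgcGGGCGGgacttGGGCGGGCGGggtg

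CpG density divided the members. The S100A6 and S100A10 windows each hold 24 CpG and 70.0% and 71.2% GC, and the S100A11 window 15 CpG and 63.6% GC, against a median of 11 CpG and 58% GC over 35116 RefSeq promoters. S100A4 has 7 CpG, S100P 4, and the remaining members 1 to 6 per window. Relative to base composition, the observed to expected CpG ratio was 0.803 for S100A6, 0.786 for S100A10, 0.741 for S100A11, 0.284 for S100A4 and 0.207 for S100P, beside a median of 0.558. The CpG-dense members thus included a lower member as well as those with the greatest increases.

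The same windows were searched on both strands for 4 short motifs. GGGCGG, the GC box, occurs in 42.6% of all promoters and was found 3 times for S100A6, beginning 90, 79 and 75 bases before the start with the last pair overlapping, once for S100A10 at 167 bases and once for S100A11 at 68 bases, and also for members that were not called, S100A9 at 131 bases and 1 of the 2 S100A16 windows at 45 bases. CANNTG, the E-box core, occurs in 61.8% of promoters and was found for S100A6, S100A4 and S100P among the members that changed. AGAACA, part of a steroid hormone response element, occurs in 12.4% of promoters and in none of these windows. TGANTCA, the AP-1 type motif, occurs in 6.57% and was found only for S100A2, 52 bases before the farther of its 2 annotated starts. These matches describe letters in a window and do not show binding.

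S100A10, also called p11, does not bind calcium and forms a complex with annexin A2 that sits under the plasma membrane and binds plasminogen at the cell surface. Its gene spans chr1:151982915-151993859 on the minus strand. The parental libraries read 2.15, 4.27 and 2.29 FPKM and the resistant libraries 118.6, 132.0 and 117.6 FPKM. The lowest resistant library was far above the highest parental library. The log2 fold change was 5.42 with a standard error of 0.258 and an adjusted p of 2.71e-05 by limma. The gene moved from rank 12473 to rank 832 of the tested genes by mean level. By the estimated worth of 1 read, the parental values rest on about 20.4, 38.5 and 14.4 reads and the resistant values on 788 to 991 reads, so the gene was measurable in both groups.

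S100A6, or calcyclin, is a calcium sensor that binds CACYBP and several annexins and is common in fibroblast-like and proliferating cells. Its gene spans chr1:153534599-153536244. The parental libraries read 0.184, 0.616 and 0.156 FPKM and the resistant libraries 34.6, 40.7 and 41.8 FPKM. The groups did not overlap. The log2 fold change was 6.71 with a standard error of 0.407 and a limma adjusted p of 6.34e-05, rank 111 from the top among all tested genes. The parental values are near the floor, since 1 read on this short transcript was worth an estimated 0.212 to 0.320 FPKM. The parental libraries correspond to about 0.868, 2.77 and 0.488 reads, against 137 to 152 reads in the resistant libraries. Values below 1 are not whole reads, so these figures are only approximate. The fold therefore depends on the pseudocount, with a log2 change of 4.94 at a pseudocount of 1 and 7.16 at 0.01.

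S100P, first found in placenta, is a secreted and intracellular member that binds ezrin and is known as a RAGE ligand. Its gene spans chr4:6693878-6697170 on the plus strand. The parental libraries read 19.5, 11.8 and 20.2 FPKM and the resistant libraries 47.6, 43.6 and 37.9 FPKM. The groups did not overlap, and the ratio of means was 2.51. The log2 fold change was 1.35 with a standard error of 0.224 and a limma adjusted p of 0.00345. S100P was already well expressed in the parental cells, second among the members, so its rise was of another order than those of S100A6 and S100A10.

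S100A11, or calgizzarin, binds annexin A1 and is found in many epithelia. The parental libraries read 178.1, 150.6 and 197.6 FPKM and the resistant libraries 64.1, 66.5 and 70.5 FPKM. The groups did not overlap and the resistant mean was 0.382 of the parental mean. The log2 fold change was -1.38 with a standard error of 0.110 and a limma adjusted p of 1.81e-04. It remained expressed at a high level in resistant cells, at rank 1790 of the tested genes beside rank 613 in parental cells. Both annotated pseudogene copies of S100A11 in the table were at 0 in all libraries, and how reads shared with them were assigned is not given in the sources used here.

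S100A4, or metastasin, binds the heavy chain of non-muscle myosin IIA and is often raised in motile mesenchymal cells. Its gene spans chr1:153543613-153550136. The parental libraries read 0.742, 1.89 and 1.27 FPKM and the resistant libraries 0.521, 0.310 and 0.391 FPKM. The groups did not overlap, with a parental mean of 1.30 ± 0.576 and a resistant mean of 0.408 ± 0.107 FPKM. The log2 fold change was -1.40 with a standard error of 0.420 and a limma adjusted p of 0.0353. These values rest on about 4.69, 11.4 and 5.31 parental reads and 2.77, 1.55 and 1.74 resistant reads. The call was lost without parental replicate 1 or 2 or any of the resistant libraries, with adjusted p from 0.0672 to 0.107 in these fits, so the decrease of S100A4 is not on the same footing as that of S100A11.

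The other 5 members were low or not detected in both groups. S100A2, known as a basal epithelial gene that binds p53, read 1.14, 0.615 and 1.23 FPKM in parental and 1.23, 0 and 1.08 FPKM in resistant libraries. Apart from the resistant library listed at 0, its values lay within the parental range or at its upper edge, and the log2 fold change was -0.97 with a standard error of 1.03 (limma adjusted p 0.474). Without that library the log2 fold change was 0.25. S100A16, a widely expressed member with weak calcium binding, read 0.0692, 0.361 and 0.163 FPKM in parental and 0.180, 0.0889 and 0.206 FPKM in resistant libraries, a log2 fold change of -0.11 with a standard error of 0.533 (limma adjusted p 0.884). The resistant values of S100A16 lay inside the parental range, and the log2 fold change was 0.26 without parental replicate 1 and 0.10 without resistant replicate 1.

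S100A8 and S100A9 together form calprotectin, the abundant calcium- and zinc-binding complex of neutrophils. S100A8 was listed at 0 in all 6 libraries. S100A9 read 0, 0.125 and 0.344 FPKM in parental and 0, 0.149 and 0 FPKM in resistant libraries, at most about 1.71 reads, with a log2 fold change of -0.67 and a standard error of 0.735 (limma adjusted p 0.489). Calprotectin transcripts were thus at or near the floor in both groups. Myeloid markers were low too, with FCGR3A and TYROBP at 0 in all libraries, PTPRC at 0 in all but 1, none of 3 tested genes called, and a summed level over 9 markers of 0.353 to 0.975 FPKM in parental and 0.195 to 2.05 FPKM in resistant libraries. S100A14, an epithelial member, read 0.167, 0 and 0 FPKM in parental and 0, 0.262 and 0 FPKM in resistant libraries and was too low to test.

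**Figure D1:**
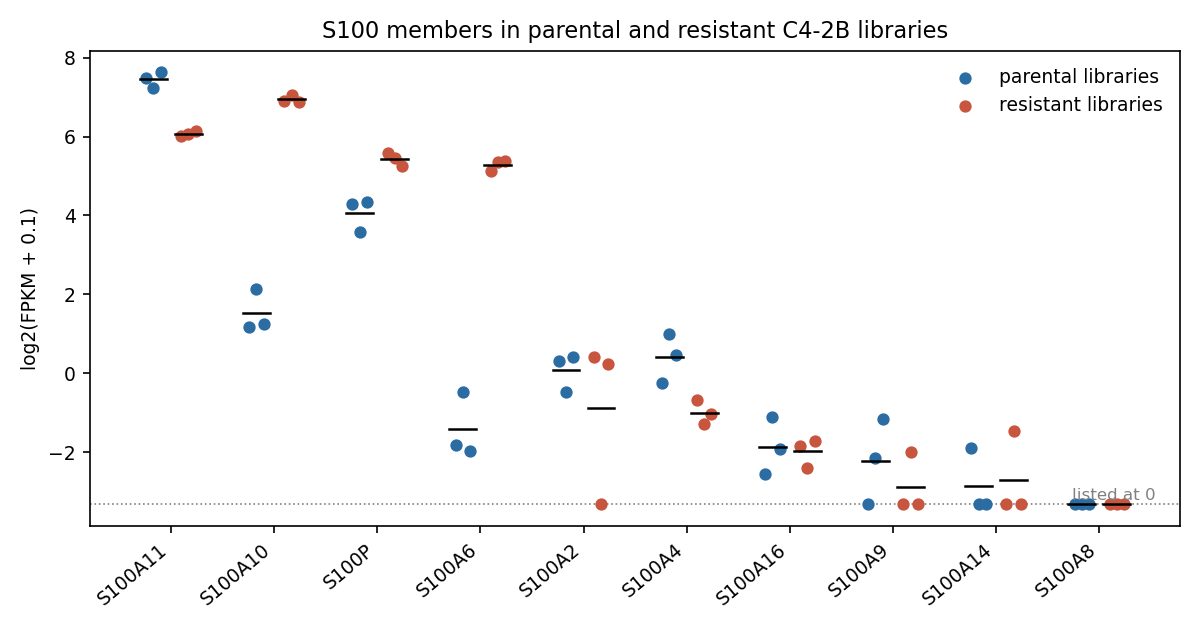
Level of each of the 10 S100 members as log2(FPKM + 0.1), each point being 1 library (parental blue, resistant red) and each bar the mean of 3 libraries. S100A10 went from at most 4.27 FPKM in parental to at least 117.6 FPKM in resistant libraries, S100A6 from at most 0.616 to at least 34.6 FPKM, S100A11 moved down, and S100A8 was listed at 0 throughout.

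The order of the members changed between the groups. In parental cells the mean levels ran S100A11, S100P, S100A10, S100A4, S100A2, S100A6, S100A16, S100A9 and S100A14, from 175.5 down to 0.0555 FPKM. The libraries did not overlap between S100A11 and S100P, S100P and S100A10, or S100A10 and S100A4, while S100A4 and S100A2, S100A2 and S100A6, and each pair of neighbours below them overlapped. In resistant cells the order was S100A10, S100A11, S100P, S100A6, S100A2, S100A4, S100A16, S100A14 and S100A9. The libraries did not overlap between S100A10 and S100A11, S100A11 and S100P, S100A6 and S100A2, or S100A4 and S100A16. S100P at 43.0 ± 4.86 and S100A6 at 39.0 ± 3.91 FPKM overlapped, as did the remaining neighbours. In each group 4 members had a mean of 1 FPKM or more, but S100A4 was among these only in parental and S100A6 only in resistant cells.

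The summed level of the 10 members was 202.1, 170.3 and 223.3 FPKM in parental and 266.9, 283.6 and 269.5 FPKM in resistant libraries. The sums did not overlap, but their make-up changed more than their size. S100A11 made up 88.15%, 88.45% and 88.49% of the sum in parental libraries and 24.03%, 23.44% and 26.15% in resistant libraries. S100A10 made up 1.06%, 2.51% and 1.03% in parental and 44.5%, 46.6% and 43.6% in resistant libraries. S100A6 went from at most 0.362% to between 12.96% and 15.53%, and S100P from between 6.92% and 9.65% to between 14.1% and 17.8%. Among transcripts of the 10 members, parental cells therefore held mainly S100A11, and resistant cells a mixture led by S100A10. These shares leave out S100A13, an S100 gene outside the 10. Its mean was 62.45 FPKM in parental and 111.3 FPKM in resistant libraries.

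**Figure D2:**
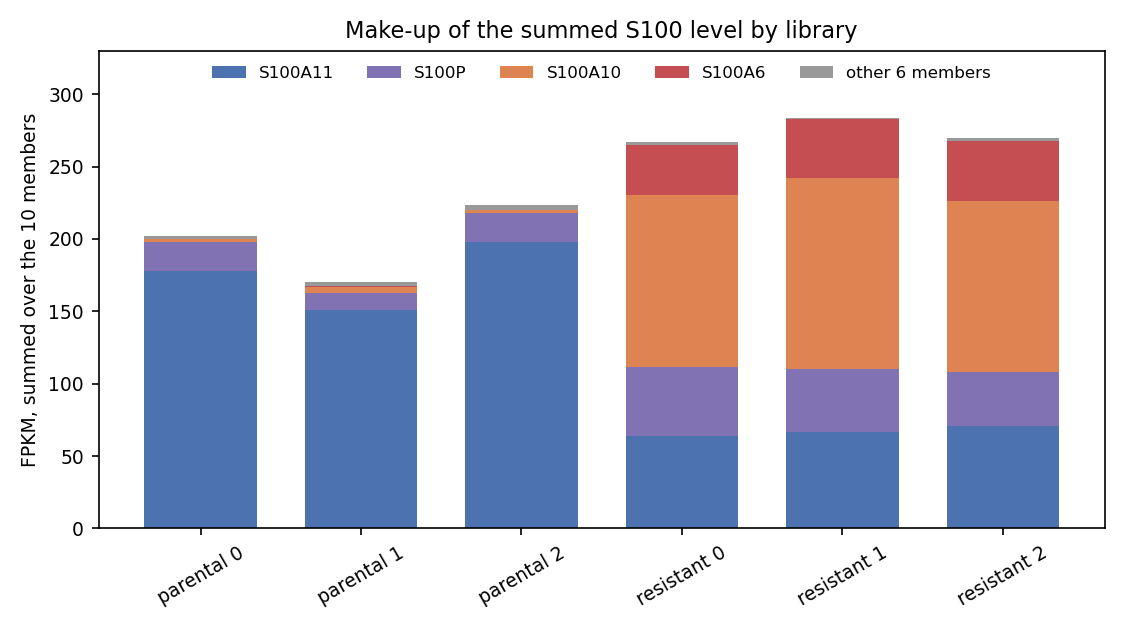
Stacked FPKM of S100A11, S100P, S100A10, S100A6 and the other 6 members in each of the 6 libraries. S100A11 fills 88.15% or more of each parental bar, while S100A10 is the largest block of each resistant bar at 43.6% to 46.6%.

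The remaining S100 genes were mostly silent. Of 11 other S100 genes in the table, 8 were listed at 0 in all libraries and 2 could be tested. S100A13, which takes part in the release of growth factors that lack a signal peptide, read 63.3, 57.7 and 66.3 FPKM in parental and 113.7, 114.6 and 105.5 FPKM in resistant libraries. It was higher in every resistant library, with a log2 fold change of 0.83, a standard error of 0.079 and a limma adjusted p of 3.53e-04. S100A1, best known from heart and skeletal muscle, read 0.243, 0.666 and 1.09 FPKM in parental and 1.01, 1.87 and 1.40 FPKM in resistant libraries and was not called (log2 fold change 1.13, limma adjusted p 0.129). S100A13 and S100A1 lie in the same merged locus in the table, overlap on opposite strands, and the sources used here do not say whether counting used strand. S100B, a glial member, was at 0.0690 FPKM in 1 parental and 0.0996 FPKM in 1 resistant library and at 0 in the others.

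Annexins are calcium-dependent membrane-binding proteins that S100 proteins dock on. Of 12 annexin genes in the table, 9 were tested, of which 3 were higher, 3 lower and 3 not called, beside 22.1% higher and 22.3% lower over all tested genes. Their median log2 fold change was 0.19 beside -0.05 over all tested genes. ANXA2, the partner of S100A10, read 0.138, 0.0851 and 0.224 FPKM in parental and 1.16, 2.19 and 2.46 FPKM in resistant libraries. Every resistant library was above every parental library, and the log2 fold change was 3.005 with a standard error of 0.427 (limma adjusted p 0.00185). ANXA6, which binds membranes through a duplicated annexin core, fell from 101.7 ± 4.75 to 42 ± 4.81 FPKM (log2 fold change -1.28, limma adjusted p 1.64e-04). ANXA9 fell from 4.24 ± 1.12 to 0.452 ± 0.175 FPKM (log2 fold change -2.99, limma adjusted p 8.29e-04). ANXA3 was listed at 0 in all parental libraries and read 1.06, 0.847 and 0.877 FPKM in resistant libraries (limma adjusted p 6.45e-04), and no fold is given for it. The 3 annexins counted higher include ANXA3, which reached the mean needed for the test only through the resistant libraries.

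S100A10 and ANXA2 rose together but not to the same level. The S100A10 level was 15.6, 50.2 and 10.2 times the ANXA2 level in parental libraries and 101.9, 60.4 and 47.9 times in resistant libraries. The log2 ratio of S100A10 to ANXA2, taken with the pseudocount of 0.1, was 3.56 ± 0.884 in parental and 5.98 ± 0.525 in resistant libraries, a difference of 2.42. A two-sided exact permutation test gave p = 0.1, the smallest value that 3 against 3 libraries allow, and without the pseudocount the ratios of parental replicate 1 and resistant replicate 2 overlap. The difference was 3.70 with a pseudocount of 1 and 1.83 with 0.01, since the parental ANXA2 values rest on about 2.203 to 4.043 reads. The 3 annotated ANXA2 pseudogenes in the table were at 0 in all libraries, and how reads shared with these copies were assigned is not given in the sources used here. In both groups ANXA2 transcripts were the scarcer of the pair by far.

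Of 18 genes for receptors, ligand-processing enzymes and targets of S100 proteins, 16 were tested, 6 were higher and 2 lower, beside 22.1% and 22.3% of all tested genes, a share of calls near the background of 44.4%. The median log2 fold change was 0.09. The 6 counted higher include PLAT, at a mean of 0.0256 FPKM in parental and 0.647 FPKM in resistant libraries. PLAT reached the mean needed for the test only through the resistant libraries. AHNAK, the giant scaffold protein that binds the S100A10 and annexin A2 complex, rose from 44.5 ± 1.26 to 56.9 ± 2.79 FPKM (log2 fold change 0.35, standard error 0.0717, limma adjusted p 0.00811). EZR, encoding the S100P target ezrin, rose from 23.6 ± 3.65 to 55.5 ± 2.85 FPKM (log2 fold change 1.24, limma adjusted p 4.34e-04). PLAUR, the urokinase receptor of the plasminogen system, rose from 0.623 ± 0.179 to 5.51 ± 1.26 FPKM (log2 fold change 2.96, limma adjusted p 5.11e-04). MYH9, the myosin heavy chain bound by S100A4, fell from 330.9 ± 27.3 to 155.0 ± 17.7 FPKM (log2 fold change -1.10, limma adjusted p 4.06e-04).

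Among the receptors, AGER, which encodes RAGE, was at 2.09 ± 0.865 FPKM in parental and 2.37 ± 1.35 FPKM in resistant libraries and was not called (log2 fold change 0.11, limma adjusted p 0.866). TLR4, a receptor for calprotectin, was listed at 0 in all parental libraries and was too low to test. Of the other surface partners, the S100A9 receptor BSG was lower, MCAM and ALCAM were higher, and NPTN (log2 fold change 0.07, limma adjusted p 0.65) and CD36 (-0.52, limma adjusted p 0.60) were not called. ALCAM had a log2 fold change of 0.32 and a limma adjusted p of 0.0434, and its call held only without resistant replicate 0 when each library was left out in turn, with adjusted p from 0.0389 to 0.119.

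**Figure D3:**
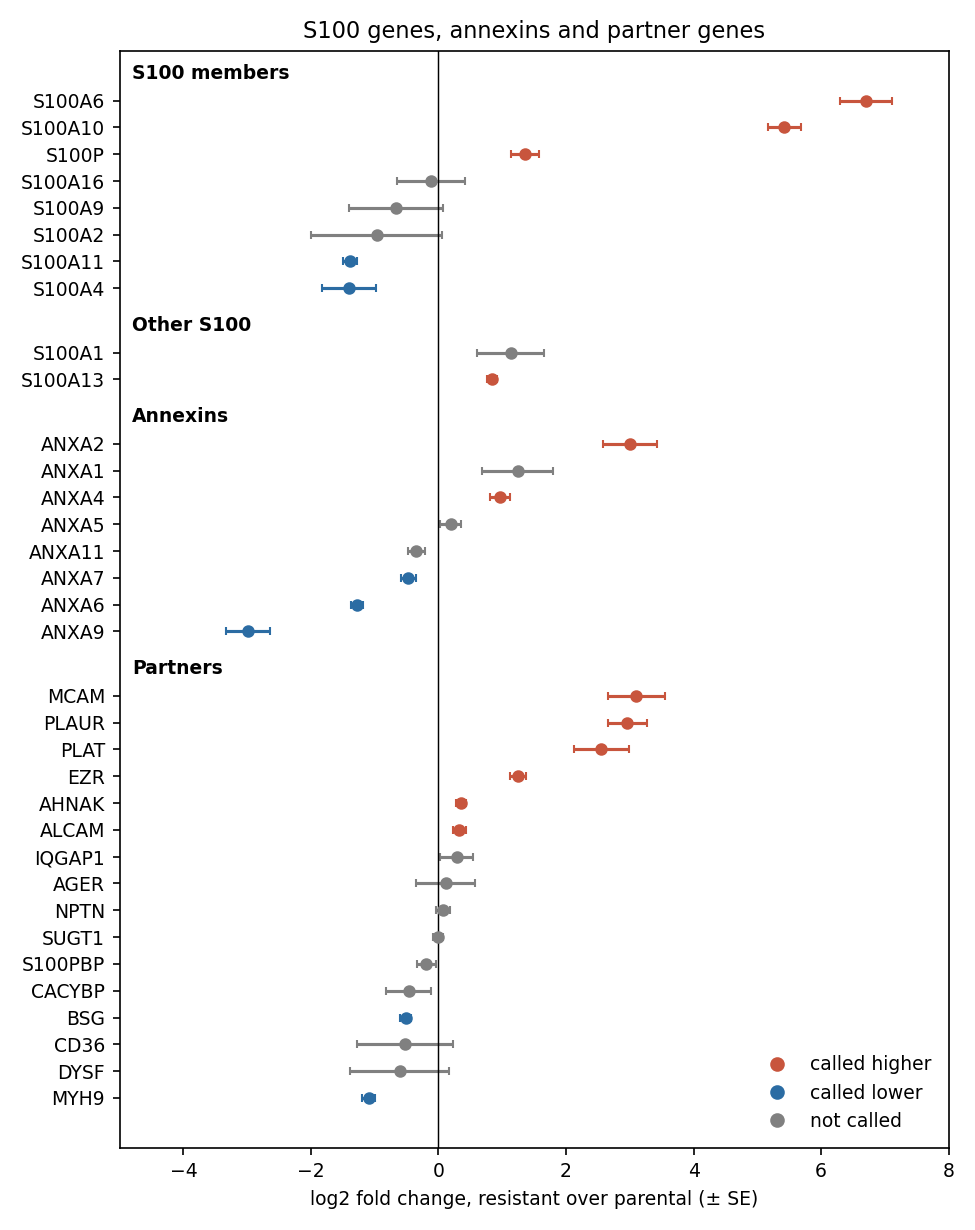
Log2 fold change, resistant over parental, with its standard error for tested S100 members, other S100 genes, annexins and partner genes, coloured by limma call (red higher, blue lower, grey not called). S100A6 at 6.71 and S100A10 at 5.42 lie to the right of all other genes drawn, and ANXA3 is left out because its parental values are all 0.

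Along chromosome 1 the members did not move as a block. S100A10 and S100A11 are neighbouring protein-coding genes and changed by 5.42 and -1.38 on the log2 scale. S100A6 at 6.71 and S100A4 at -1.40 are separated only by S100A5, which was at 0 in all libraries. A list of 36 neighbouring genes that are not S100 genes was picked by name and does not hold every gene of the region. Of the 36, 20 were tested and 10 were at 0 in all libraries. Those at 0 were mostly genes of the cornified envelope such as LOR and SPRR1B, which belong to terminally differentiating skin. The 20 tested had a median log2 fold change of 0.42, beside -0.05 over all tested genes. Of these 20, 11 were higher and 2 lower, beside 22.1% higher, 22.3% lower and 44.4% in either direction over all tested genes. Those with the smallest adjusted p were SLC27A3, a fatty acid transport protein, from 4.73 ± 1.27 to 43.7 ± 4.65 FPKM (log2 fold change 3.21, limma adjusted p 6.83e-05), the zinc transporter SLC39A1, from 55.1 ± 3.59 to 122.8 ± 8.29 FPKM (1.15, limma adjusted p 1.23e-04), and the sorting nexin SNX27, from 20.0 ± 0.974 to 43.9 ± 2.76 FPKM (1.13, limma adjusted p 1.54e-04). The changes of S100A6 and S100A10 exceeded those of all tested neighbours on this list.

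**Figure D4:**
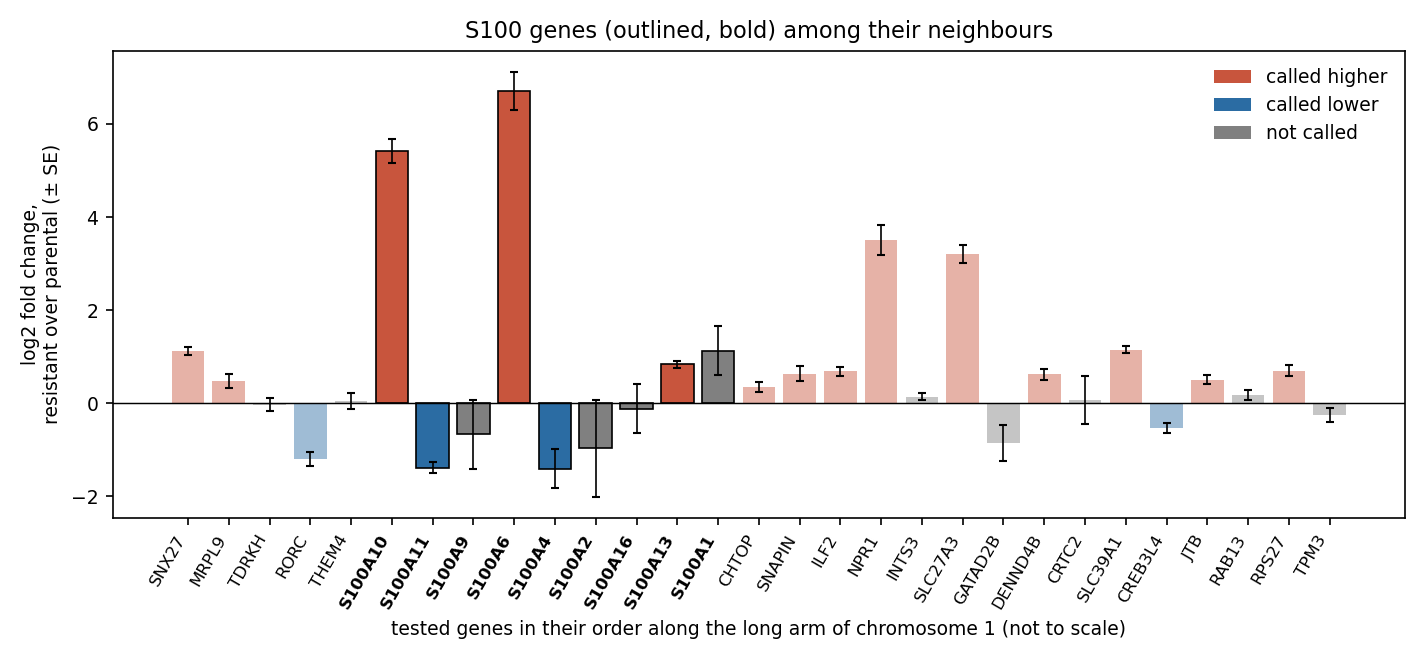
Log2 fold change, resistant over parental, with its standard error for the tested S100 genes (outlined) and the tested genes of the neighbour list. Genes are in order along the long arm of chromosome 1, not to scale. Bars of opposite sign stand side by side at S100A10 (5.42) and S100A11 (-1.38).

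The genes with the pattern most like S100A6, the called member with the largest change among those above 0 in every library, were picked by the Euclidean distance between mean-centred log2 values over the 6 libraries. FAM213A was nearest at a distance of 0.20, with 0.157, 0.576 and 0.158 FPKM in parental and 31.5, 35.2 and 35.5 FPKM in resistant libraries. CNN3, encoding the actin-binding protein calponin 3, followed at 0.45, with mean levels of 0.270 and 32.5 FPKM, and GSTM4, a glutathione transferase, at 0.52, with mean levels of 0.0386 and 10.8 FPKM.

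Calls among markers of other cell types went in both directions. Over all tested genes 22.1% were higher and 22.3% lower. Over so few genes the counts below are not read as a result about a cell type. Of 5 basal epithelial markers 3 were tested, KRT15 being higher, KRT14 lower and DST not called (limma adjusted p 0.0634). The summed level was 14.1 to 23.9 FPKM in parental and 23.4 to 30.3 FPKM in resistant libraries. Most of this sum was DST, at 16.6 ± 5.47 FPKM in parental and 25.7 ± 3.67 FPKM in resistant libraries. KRT14 was at 0 in all resistant libraries, so it reached the mean needed for the test only through the parental libraries. KRT5 and TP63 were above 0 only in resistant replicate 0. Of 6 fibroblast markers 5 were tested, DCN and LUM being higher and PDGFRB lower, and the sum was 8.04 to 10.9 FPKM in parental and 8.34 to 15.0 FPKM in resistant libraries. DCN was at 0 in all parental libraries and at 3.63, 3.78 and 4.35 FPKM in resistant libraries. LUM had a parental mean of 0.0604 FPKM. DCN and LUM therefore reached the mean needed for the test only through the resistant libraries. Of 7 squamous markers 4 were at 0 everywhere and the only tested gene, KRT10, was lower. The part of these marker genes in the S100 values was not tested.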

How the data were processed

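The authors prepared 3 libraries of parental and 3 of resistant C4-2B cells from total RNA with a stranded total RNA kit and sequenced them as single-end reads of 50 bases. The deposited FPKM values were made by the authors with Cufflinks 2.2.1 and GENCODE v25 from alignments of STAR 2.5.3 on GRCh38, after trimming by TrimGalore 0.4.3. The unit is not written in the table and was inferred from these tools and from the form of the values. The submitters' processing notes also list a mouse build, mm10, which goes against the human gene identifiers in the table, as well as Trimmomatic 0.27 and FastQC 0.10.1. Whether strand was used in counting is not given in the sources used here. Without read counts no count test was possible, and a 0 was read as listed at 0.

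Groups and replicate numbers were taken from the sample titles. The 24468 of 58024 genes whose mean reached 0.1 FPKM were tested on log2(FPKM + 0.1) by limma 3.58.1 (R 4.3.3), with a mean-variance trend and no block. P-values were two-sided and adjusted by Benjamini-Hochberg over all tested genes with a threshold of 0.05. The fit was tested on simulated data. A within-library ratio was compared with an exact permutation test in scipy 1.17.1. Depth was estimated from the step between the lowest values of genes having a lone transcript of 600 to 8000 bases, for an assumed fragment length of 200 bases. Gene spans come from GENCODE v44, matched through gene identifiers for 56980 genes. Promoters come from a RefSeq table of GRCh38.p14, which matched all 10 members.

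The members and gene lists were chosen with earlier results of these data known. All 10 members and all other S100 genes above 0 are named, as are the 3 genes per list that had the lowest adjusted p, ANXA2, AHNAK, AGER and TLR4, and the 3 genes of at least 1 FPKM most like the called member with the largest change. MCAM, ALCAM, BSG, PLAT, CALB1, LOR, SPRR1B and the marker genes were named after their values were seen. The alternatives covered the pseudocount, the filter, the scaling, the trend of the variance, a replicate block and each library left out. Some marker values are not reported here.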

Additional observations from a re-analysis of the deposited data

How the results depend on the processing

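The increase of S100A6, S100A10 and S100P and the decrease of S100A11 kept their direction and their call under all 15 alternatives. The log2 fold change ranged from 4.94 to 7.18 for S100A6, from 5.03 to 5.72 for S100A10, from 1.11 to 1.49 for S100P and from -1.49 to -1.24 for S100A11. The number of members called lower was 1 with a mean of at least 1 FPKM, 1 without a filter on low values, 1 with the replicate block, and 1 to 2 with each library left out in turn, because S100A4 was not tested at the stricter mean and lost its call in the others. The adjusted p of S100A4 was 0.0625 without the filter and 0.0890 with the block, and lay between 0.0179 and 0.107 over its alternatives. With each library left out, the log2 fold change ranged from -1.62 to 0.25 for S100A2 and from -0.46 to 0.26 for S100A16, which was also positive at 0.10 without resistant replicate 1. Counts of calls in the other gene lists and over all genes stayed within 1.5 times. The median log2 fold change of all tested genes lay between -0.09 and 0.05 over all settings.

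The replicate numbers of the 2 groups share only a number. Deviations of same-numbered libraries correlated at 0.00802, 0.0165 and -0.00301, so the block result is no paired analysis, and with it 3 members were called higher and 1 lower. Depth limits S100A4, S100A9, S100A14, S100A16 and the parental values of S100A6 and ANXA2, which rest on few reads.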

Other observations

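Other EF-hand calcium-binding genes, which share the calcium-binding loop of the S100 proteins, were followed as a list of 23 genes. Of 18 tested, 7 were higher and 4 lower in resistant libraries, beside 22.1% higher and 22.3% lower over all tested genes. Their median log2 fold change was 0.01 beside -0.05 over all tested genes. The 7 counted higher include CALB1, listed at 0 in all parental libraries and at a mean of 0.609 FPKM in resistant libraries. CALB1 reached the mean needed for the test only through the resistant libraries. CALM3, 1 of the genes that encode calmodulin, rose from 162.5 ± 5.97 to 355.5 ± 10.9 FPKM (log2 fold change 1.13, standard error 0.0599, limma adjusted p 4.04e-05). SRI, encoding sorcin, a regulator of calcium release, rose from 28.6 ± 3.58 to 86.7 ± 3.43 FPKM (log2 fold change 1.60, limma adjusted p 7.99e-05). CHP1, which supports sodium-proton exchangers, fell from 78.8 ± 8.40 to 39.1 ± 7.34 FPKM (log2 fold change -1.02, limma adjusted p 0.00237).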
